A study of Mus musculus with 24 samples.

Results

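In mouse embryonic stem (ES) cells without REV-ERBα and REV-ERBβ (KO), 8 of the 24 RNA-seq libraries of the series were compared 12 h apart on the daily cycle. Time after dexamethasone was taken modulo 24 h. The libraries at 24, 28, 48 and 52 h (hours 0 and 4, 4 libraries) were set against those at 12, 16, 36 and 40 h (hours 12 and 16, 4 libraries). The hour of the cycle counts from the treatment and is not circadian time. The KO line carries the Per2::Luciferase knock-in, as do the control cells (WT), and was made by CRISPR/Cas9 deletion of an exon of Rev-erbα (Nr1d1) in established Rev-erbβ (Nr1d2) deficient cells. Mutant lines came from picked colonies, so that a difference from WT cannot be told apart from one between lines. The cells had been grown as embryoid bodies to day 28, all received 100 nM dexamethasone, a glucocorticoid that aligns cellular clocks, and each library holds the pooled RNA of 3 embryoid bodies at 1 time point. The spread within a side therefore includes change over time, and p-values measure the spread between these libraries.

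REV-ERBα and REV-ERBβ are nuclear receptors that repress transcription at ROR/REV-ERB response elements (RREs), where the activating ROR receptors also bind. In the main loop of the clock, BMAL1 (Arntl) with CLOCK or NPAS2 activates Per, Cry, Rev-erb and Dbp genes through E-boxes, and PER and CRY proteins close the loop by inhibiting these activators. REV-ERBs form a further loop, since Arntl and Npas2 are RRE targets. The PAR bZIP factors DBP, TEF and HLF activate genes with D-boxes, such as Per3, and NFIL3 represses them. Values below are RPKM, the fragments on a gene's exons scaled to exonic length and library total, and log2 differences are hours 0 and 4 minus hours 12 and 16 on log2(RPKM + 0.1), with standard errors (SE).

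Of the 19 clock genes described, 16 had a RefSeq promoter window that begins at the start used in the table of values (GRCm38.p6). Per1, Per2 and Bhlhe40 had none. In the 250 bases before the start, both strands were searched for the E-box CACGTG, the E-box variant CACGTT, the D-boxes TTATGTAA and TTATGCAA, and AGGTCA, the core of the RRE. The E-box was in 4 of the 16 windows and in 6.02% of all 32851 windows, the variant in 3 and in 3.85%, a D-box in 1 and in 1.5%, and AGGTCA in 2 and in 14%. Shown here are the genes on which the comparison turned, with Nr1d1, Nr1d2 and Dbp first, followed by Cry1, Per3 and Tef, and the capitals mark the motifs. A match is a description of the letters and not a binding site.
Nr1d1, chr11:98775378-98775627, minus strand: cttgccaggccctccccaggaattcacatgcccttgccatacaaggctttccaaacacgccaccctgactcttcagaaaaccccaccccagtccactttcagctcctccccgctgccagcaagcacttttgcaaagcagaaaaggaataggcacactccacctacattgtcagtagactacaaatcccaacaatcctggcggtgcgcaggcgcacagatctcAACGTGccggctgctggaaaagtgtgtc
Nr1d2, chr14:18239107-18239356, minus strand: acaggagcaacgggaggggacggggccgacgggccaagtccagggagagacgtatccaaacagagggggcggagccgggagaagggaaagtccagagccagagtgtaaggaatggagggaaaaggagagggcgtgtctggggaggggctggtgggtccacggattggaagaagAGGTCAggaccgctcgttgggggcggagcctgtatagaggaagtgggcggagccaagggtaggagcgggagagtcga
Dbp, chr7:45704997-45705246, plus strand: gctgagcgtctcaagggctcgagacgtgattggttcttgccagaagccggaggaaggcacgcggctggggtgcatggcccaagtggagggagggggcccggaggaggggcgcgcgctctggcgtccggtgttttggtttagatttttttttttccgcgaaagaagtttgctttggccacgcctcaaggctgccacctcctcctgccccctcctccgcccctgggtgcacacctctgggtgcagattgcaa
Cry1, chr10:85185055-85185304, minus strand: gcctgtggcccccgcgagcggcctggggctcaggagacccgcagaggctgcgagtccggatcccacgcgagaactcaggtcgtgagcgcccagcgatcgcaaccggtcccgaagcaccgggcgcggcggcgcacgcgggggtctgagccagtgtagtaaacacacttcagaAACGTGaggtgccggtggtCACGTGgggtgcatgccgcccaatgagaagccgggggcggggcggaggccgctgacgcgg
Per3, chr4:151044666-151044915, minus strand: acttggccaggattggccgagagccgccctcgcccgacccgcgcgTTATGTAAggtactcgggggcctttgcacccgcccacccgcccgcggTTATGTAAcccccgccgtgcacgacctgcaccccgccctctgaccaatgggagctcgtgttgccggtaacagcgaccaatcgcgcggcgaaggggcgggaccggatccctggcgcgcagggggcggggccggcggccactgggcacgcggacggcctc
Tef, chr15:81802423-81802672, plus strand: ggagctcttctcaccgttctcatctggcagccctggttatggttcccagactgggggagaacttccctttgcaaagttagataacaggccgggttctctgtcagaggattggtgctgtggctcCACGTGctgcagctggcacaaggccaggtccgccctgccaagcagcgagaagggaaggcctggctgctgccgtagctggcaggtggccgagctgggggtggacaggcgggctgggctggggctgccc
The variant CACGTT lay on the opposite strand at -28 in Nr1d1 and at -79 in Cry1, counted to the first base of the match. The E-box was at -60 in Cry1 and at -127 in Tef. AGGTCA was at -77 in Nr1d2, the D-boxes were at -205 and -158 in Per3, and the Dbp window held none of these letters. For Arntl, whose 250 bases before the start also held none, a core lies in exon 1 of the gene at chr7:113207530-113207559 (plus strand), shown because Arntl is the standard RRE target.
Arntl exon 1: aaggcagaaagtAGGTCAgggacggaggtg

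Library totals, given with the values, ranged from 17.4 M (M, mega) to 21.7 M fragments at hours 0 and 4 and from 13.7 M to 16.3 M at hours 12 and 16 in KO. They did not overlap (exact permutation test, two-sided, p = 0.0286, the smallest that 4 against 4 libraries can give, n = 4), so hours 0 and 4 were the more deeply sequenced side. In WT the totals ran from 14.3 M to 20.4 M and from 16.4 M to 20.1 M. The mean time after dexamethasone was 38 h on one side and 26 h on the other. The part of depth in the results was not tested, and that of time after treatment only by the alternatives in the closing section. The cultures held several cell types. Summed endothelial markers were 13.4 to 16.1 RPKM at hours 0 and 4 and 17.4 to 23.4 RPKM at hours 12 and 16, without overlap, with all 9 listed genes in the table and none at 0 throughout. Summed liver, yolk sac and endoderm markers ran from 183 to 733 and from 163 to 1355 RPKM, and summed markers of residual pluripotent cells from 0.192 to 1.77 and from 0.668 to 5.5 RPKM. The sums of all cell type lists other than the endothelial one overlapped between the sides. In such bulk samples fewer cells of a type and less RNA per cell cannot be told apart.

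No gene passed the test in KO. The 14763 genes tested averaged more than 0.5 RPM (RPKM times the exonic length in kilobases) across the KO time course, and 0 (0%) had an adjusted p under 0.05 (limma, Benjamini-Hochberg over all genes). At an unadjusted p under 0.05, 248 genes (1.68%) were higher and 652 (4.42%) lower at hours 0 and 4. With the values centred on a common median, these counts were 441 and 378, so the larger number of lower genes depended on the scaling. The 4 libraries of one side lay wholly above those of the other for 134 genes (0.908%) and wholly below for 353 (2.39%). Clock genes were nevertheless among those with the smallest p. By unadjusted p, AK053029 ranked 1, Nr1d1 2, Nr1d2 5 and Dbp 20 of all genes. When a 24 h cosine with a linear trend was fitted to all 12 KO libraries, 3 genes (0.0203%) were called for the same contrast of the fitted rhythm, namely AK053029, Dbp and Nr1d1.

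The largest clock gene differences were in the genes for the receptors themselves. Because only an exon of each gene was deleted, their values count the transcripts that remained. Nr1d1 (chr11:98767932-98775377, minus strand) was at 9.11, 9.65, 8.02 and 9.74 RPKM at 24, 28, 48 and 52 h, and at 2.73, 2.48, 4.56 and 4.48 RPKM at 12, 16, 36 and 40 h. All libraries of hours 0 and 4 were above all libraries of hours 12 and 16. The means were 9.13 ± 0.791 and 3.56 ± 1.11 RPKM (SD, n = 4), a ratio of 2.56 and a log2 difference of 1.38 (SE 0.189). The adjusted p was 0.224 in limma across all genes and 0.0442 in the cosine fit. The lower side was itself uneven, since the second cycle's values at 36 and 40 h were well above the first cycle's, and the log2 difference was 1.81 in the first cycle and 0.95 in the second.

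AK053029 (chr11:98768996-98773402, plus strand) is a transcript listed inside Nr1d1 on the opposite strand. It was at 3.29, 3.90, 3.05 and 3.79 RPKM at hours 0 and 4 and at 0.929, 0.690, 1.32 and 1.36 RPKM at hours 12 and 16, again without overlap. Its log2 difference of 1.66 (SE 0.191) had the smallest p of all genes, with an adjusted p of 0.1 in limma and 0.0236 in the cosine fit. The library kit does not mark strand, and in the GENCODE vM21 annotation 1617 exonic bases of Nr1d1, 59.4% of its exons, fall inside AK053029 and make up 36.7% of its length. Reads of the genes cannot be told apart in those bases. Over that stretch the values of AK053029 and Nr1d1 are not separate measurements. Thra, the thyroid hormone receptor gene that meets the 3′ end of Nr1d1, overlaps it by 1075 bases. The Nr1d1 values may thus hold reads of AK053029 and of Thra, and their part was not tested.

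Nr1d2 (chr14:18204056-18239106, minus strand) was at 3.72, 5.27, 3.85 and 4.67 RPKM at hours 0 and 4 and at 1.77, 1.38, 2.60 and 2.26 RPKM at hours 12 and 16. The sides did not overlap, and within hours 0 and 4 the libraries of hour 4 (28 and 52 h) were the higher ones. The means of 4.38 ± 0.730 and 2.00 ± 0.539 RPKM (SD, n = 4) gave a log2 difference of 1.12 (SE 0.186) with an adjusted p of 0.429 in limma across all genes and 0.0800 in the cosine fit.

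Dbp (chr7:45705247-45710203, plus strand), the D-box activator, was at 4.53, 7.16, 4.13 and 7.47 RPKM at hours 0 and 4 and at 2.82, 1.71, 3.65 and 2.52 RPKM at hours 12 and 16. Every library of hours 0 and 4 was higher, but the margin at hour 0 over hour 12 was small. The log2 difference was 1.10 (SE 0.248) over all 8 libraries, with 0.42 between hours 0 and 12 and 1.77 between hours 4 and 16. The adjusted p was 0.792 in limma across all genes and 0.0236 in the cosine fit. Nr1d1, Nr1d2, Dbp and Npas2 were the members of the 19 clock genes without overlap, all higher at hours 0 and 4. Of all genes tested, 0.908% were higher and 2.39% lower without overlap. Each of these clock genes had p = 0.0286 by the exact permutation test (two-sided, 70 splits of 8 libraries, n = 4). That is the smallest p the test can give and follows from the lack of overlap, while the other 15 had exact p from 0.143 to 1.

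**Figure D1:**
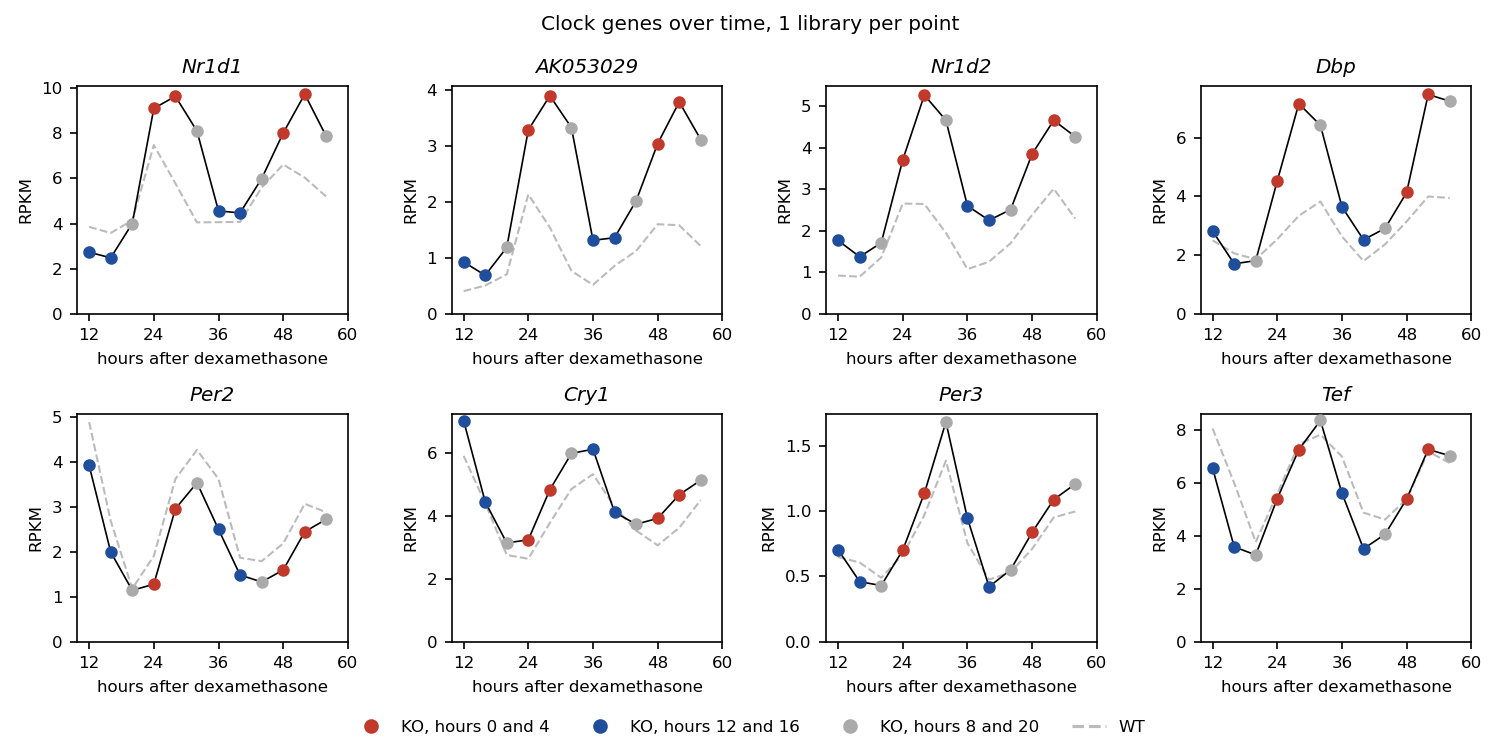
RPKM of 8 transcripts (vertical axes, from 0) against hours after dexamethasone in the 12 KO libraries, 1 point per library, with the sides in colour and WT as a dashed grey line. The red points of Nr1d1, AK053029, Nr1d2 and Dbp all lie above the blue points, whereas those of Per2, Cry1, Per3 and Tef interleave with them.

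Per2, Cry1, Per3, Tef and Hlf, whose highest KO value fell at hour 8 or 12, had overlapping sides. Per2 (chr1:91415982-91459328), a repressor of the main loop, was at 1.28, 2.96, 1.59 and 2.45 RPKM at hours 0 and 4 and at 3.92, 2.00, 2.501 and 1.48 RPKM at hours 12 and 16. The values interleaved because hour 0 was below hour 12 by a log2 difference of -1.08 while hour 4 was above hour 16 by 0.62. Together they gave -0.23 (SE 0.311, exact permutation p = 0.571, n = 4).

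Cry1 (chr10:85131700-85185054), the partner repressor, was at 3.24, 4.84, 3.93 and 4.68 RPKM at hours 0 and 4 and at 7.04, 4.45, 6.13 and 4.12 RPKM at hours 12 and 16. Only the libraries of hour 12 stood above all libraries of hours 0 and 4. Its log2 difference was -0.86 between hours 0 and 12, 0.15 between hours 4 and 16 and -0.36 (SE 0.182) over all.

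Per3 (chr4:151003655-151044665) was at 0.702, 1.14, 0.837 and 1.09 RPKM at hours 0 and 4 and at 0.703, 0.459, 0.944 and 0.420 RPKM at hours 12 and 16. Hours 0 and 12 were close in value, at a log2 difference of -0.08, and hours 4 and 16 were 1.17 apart. Tef (chr15:81802673-81826863) had the same arrangement, with 5.40, 7.24, 5.38 and 7.25 RPKM against 6.54, 3.58, 5.599 and 3.502 RPKM, -0.16 between hours 0 and 12 and 1.01 between hours 4 and 16. For Hlf (chr11:90336535-90390917) the differences were -0.44 and 0.61. A contrast of both hours thus averaged over opposite differences, and over all 8 libraries Per3 was at 0.54 (SE 0.238), Tef at 0.42 (SE 0.205) and Hlf at 0.09 (SE 0.217), with adjusted p from 0.792 to 0.961 in limma across all genes.

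**Figure D2:**
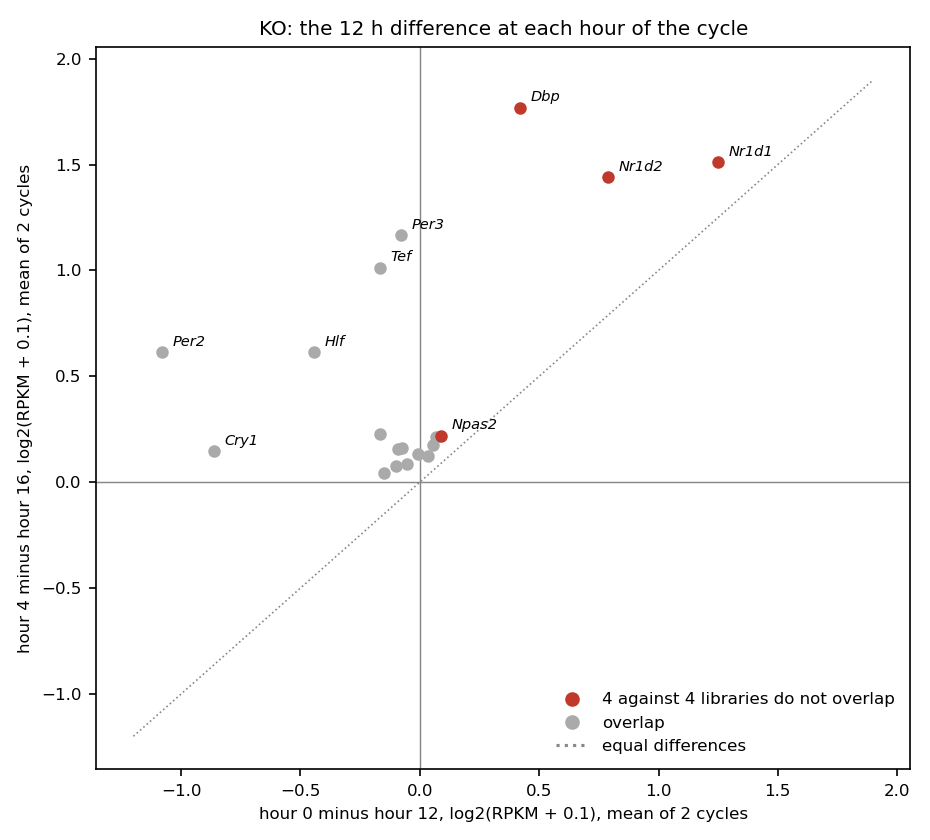
KO log2 difference between hours 0 and 12 (horizontal axis) and between hours 4 and 16 (vertical axis) for the 19 clock genes, 1 point per gene, each a mean over the 2 cycles, with genes whose sides do not overlap in red and the 10 unlabelled genes within 0.4 of 0 on both axes. Nr1d1 lies near the dotted line of equal differences, Dbp far above it, and Per2 and Hlf at opposite signs.

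The activators had small differences between the sides. Arntl (chr7:113207465-113314126) was at 4.45, 4.18, 4.77 and 5.19 RPKM at hours 0 and 4 and at 5.61, 4.46, 4.67 and 4.56 RPKM at hours 12 and 16. The sides overlapped, with a log2 difference of -0.05 (SE 0.093) and a 95% interval from -0.26 to 0.15. Npas2 (chr1:39194272-39363240), which can take the place of CLOCK, was at 4.50, 4.58, 4.39 and 4.59 RPKM at hours 0 and 4 and at 4.30, 3.89, 4.05 and 3.95 RPKM at hours 12 and 16. Its sides did not overlap, but the difference was small, at 0.15 (SE 0.058, adjusted p = 0.792 in limma across all genes). Clock was at 0.08 (SE 0.095), Arntl2 at -0.01 (SE 0.242) and Rora, an activator at RREs, at 0.01 (SE 0.116). Among the remaining repressors, Per1 was at 0.06, Cry2 at 0.03, Ciart at 0.03, Bhlhe40 at 0.12 and Bhlhe41 at 0.14, and Nfil3 was at 0.04, all with overlapping sides.

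To see where KO cells differed from control cells, the same contrast was taken in WT. There 1 of 14944 genes (0.00669%) was called, Nr1d2, with a log2 difference of 1.29 (SE 0.121, adjusted p = 0.0235 in limma across all genes). At an unadjusted p under 0.05, 367 WT genes (2.46%) were higher and 1117 (7.47%) lower. The difference of the contrast between KO and WT was tested over 16 libraries as an interaction, and 0 of 15112 genes (0%) passed, with 325 (2.15%) at an unadjusted p under 0.05. What follows are therefore values that did not pass correction over all genes.

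Nr1d1 had 7.48, 5.78, 6.62 and 6.04 RPKM in WT at hours 0 and 4 and 3.86, 3.58, 4.06 and 4.08 RPKM at hours 12 and 16, a log2 difference of 0.71 (SE 0.085). The KO difference was larger by 0.67 (SE 0.23, unadjusted p = 0.00984, adjusted p = 1 in limma). At each time point of hours 0 and 4 KO was above WT. At hours 12 and 16 it was below WT in the first cycle and above WT in the second, by the values given. RPKM was scaled to the same exonic length in both genotypes, although an exon of Nr1d1 and of Nr1d2 was deleted in KO. Levels of these genes are therefore not directly comparable between KO and WT, and the part of the deletion in them was not tested. Nr1d2 differed by -0.18 between the genotypes (SE 0.24) and AK053029 by 0.19 (SE 0.29), while both had higher levels in KO than in WT on each side. For Dbp, WT had 2.54, 3.34, 3.15 and 4.00 RPKM against 2.502, 2.06, 2.64 and 1.80 RPKM, which overlapped, and the KO difference was larger by 0.58 (SE 0.32, unadjusted p = 0.0874 in limma).

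For the RRE targets Arntl and Npas2, the WT differences were negative. WT Arntl was at 3.24, 2.89, 3.27 and 2.94 RPKM at hours 0 and 4 and at 4.64, 4.05, 3.92 and 3.96 RPKM at hours 12 and 16. Each WT library of hours 12 and 16 was higher than each of hours 0 and 4, at a log2 difference of -0.41 (SE 0.076), against -0.05 in KO. The interaction was 0.36 (SE 0.12, unadjusted p = 0.00911, adjusted p = 1 in limma). WT Npas2 was at 2.76, 2.25, 2.81 and 2.16 RPKM against 3.43, 3.12, 2.64 and 3.34 RPKM, with -0.32 (SE 0.115), and the interaction was 0.47 (SE 0.13, unadjusted p = 0.00206, adjusted p = 1 in limma). Cry1 was at -0.59 (SE 0.136) in WT and Per2 at -0.23 (SE 0.289), with interactions of 0.24 (SE 0.25) and 0.00 (SE 0.47), the latter too wide to bound the difference closely.

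**Figure D3:**
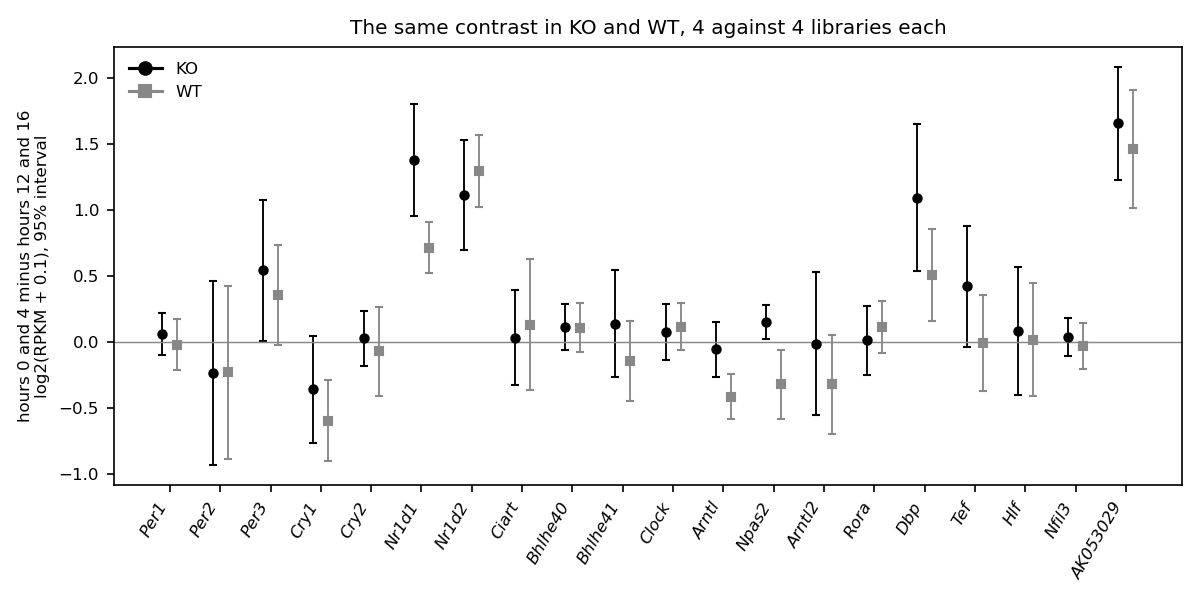
Log2 difference of hours 0 and 4 minus hours 12 and 16 (vertical axis) for the 19 clock genes and AK053029 in KO (black circles) and WT (grey squares), 4 against 4 libraries each, with 95% intervals from limma. Nr1d1, Dbp, Arntl and Npas2 are the genes whose KO points lie farthest above WT in units of their errors.

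Outside the clock, genes were taken by their p among those with the same sign in both cycles and no overlap, so the lack of overlap is how they were chosen. None was called. Of the 10 higher genes, 6 not yet described are Gm19277, Cxcl12, Cx3cl1, Abi3bp, Hist2h2bb and Spock2. Cxcl12 (chr6:117168535-117181368), a chemokine of stromal cells, was at 14.8, 13.4, 13.3 and 15.2 RPKM at hours 0 and 4 and at 10.7, 11.3, 11.4 and 11.2 RPKM at hours 12 and 16. The spread within each side was small beside the gap, at a log2 difference of 0.34 (SE 0.057, adjusted p = 0.429 in limma), and the WT difference was 0.33. In the cosine fit over 12 libraries, however, Cxcl12 had 0.26 with an adjusted p of 0.667.

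Cx3cl1 (chr8:94772180-94782426), a membrane-bound chemokine, was at 26.6 to 29.5 RPKM against 21.2 to 24.2 RPKM (0.31, SE 0.056). Abi3bp (chr16:56477846-56690135) and Spock2 (chr10:60106257-60133913), which code for extracellular matrix proteins, were at 1.82 to 2.01 against 1.30 to 1.55 RPKM and at 8.86 to 10.8 against 7.47 to 8.13 RPKM. In WT these matrix genes had small differences of the other sign, at -0.08 and -0.07. Gm19277 was at 1.27 to 1.80 against 0.720 to 0.881 RPKM. Hist2h2bb was at 1.27 to 1.71 against 0.966 to 1.12 RPKM. As a histone gene of a family with near-identical copies its counts are uncertain. Gm19277 and Hist2h2bb also rest on few fragments. At hours 0 and 4 and at hours 12 and 16, the means per KO library were 33.37 and 13.38 for Gm19277. For Hist2h2bb they were 14.25 and 7.25.

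The 10 lower genes with the smallest p had log2 differences from -0.56 to -0.20. Pmvk (chr3:89459118-89469009), phosphomevalonate kinase of sterol synthesis, was at 6.21, 6.38, 5.94 and 5.51 RPKM against 7.90, 7.39, 7.71 and 7.62 RPKM. Its log2 difference of -0.35 (SE 0.059, adjusted p = 0.429 in limma) had the same sign as in WT (-0.25). Esam (chr9:37528089-37538319), an endothelial adhesion molecule, was at 2.10, 1.74, 2.20 and 2.03 against 3.07, 3.17, 2.62 and 3.25 RPKM, with -0.56 (SE 0.1). It is itself a member of the endothelial marker list, so the marker sums given above are not independent of it. Gtf2f2 (chr14:75896937-76010865), a subunit of the general transcription factor TFIIF, was at 4.08, 3.77, 4.36 and 3.70 against 5.06, 5.20, 5.38 and 4.91 RPKM. Its log2 difference was -0.36 (SE 0.069) in KO and 0.12 (SE 0.061) in WT, and the interaction of -0.49 (SE 0.09) had the smallest p of all genes there (adjusted p = 0.624 in limma).

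The other 7 were between -0.43 and -0.20. Rcc1, the exchange factor for the GTPase Ran, was at -0.43, Lsm5, of the RNA-binding Lsm ring, at -0.40, Rps19bp1 at -0.37, the cell cycle inhibitor gene Cdkn1c at -0.26, Fbl, which codes for the nucleolar methyltransferase fibrillarin, at -0.21, AB343393 at -0.21 and Dohh, an enzyme of hypusine synthesis, at -0.20.

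**Figure D4:**
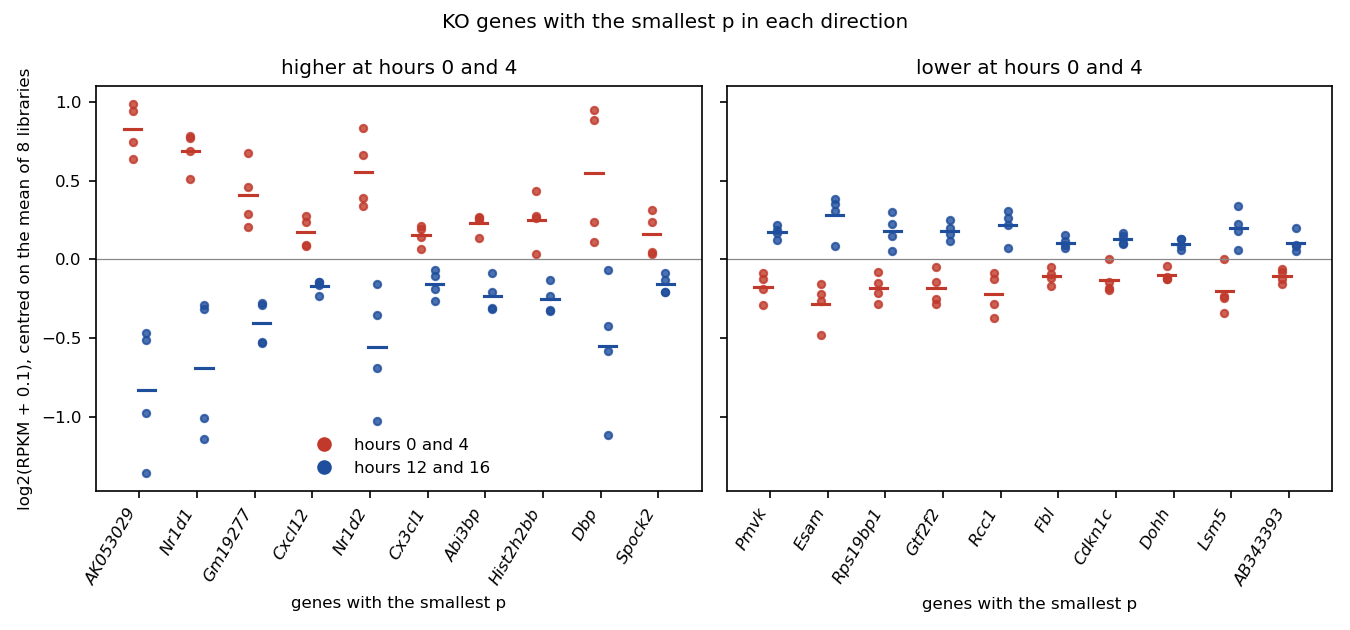
Log2(RPKM + 0.1) of the 8 KO libraries, centred on each gene's mean (vertical axis), for the 10 genes with the smallest p in each direction, chosen to have no overlap, with bars at the mean of each side of 4 libraries. The clock transcripts span more than 1 log2 unit between the means, and the lower genes less than 0.6.

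Gene lists were described by counts and medians, beside a median of -0.03 over all genes tested, of which 9093 had negative and 5670 positive differences. In every list 0 members were called. The cholesterol list holds genes of sterol synthesis and uptake. All 20 were negative, with a median of -0.18, from -0.35 for Pmvk to -0.07 for Srebf2, the gene of the sterol-sensing transcription factor SREBP2, and 3 of the 20 had an unadjusted p under 0.05, Pmvk and Mvd among them, where 4.42% of all genes were lower at that p. The median was -0.12 in the first cycle and -0.22 in the second, -0.15 after median centring with 20 of 20 negative, and -0.15 in WT. It came mainly from hours 4 and 16, at -0.29, and was -0.05 between hours 0 and 12. These genes share their regulation, so that 20 signs are not 20 observations. Epithelial markers were also negative in 10 of 10, with a median of -0.27 and with -0.22 and -0.38 in the cycles, and their summed level was 785 to 1041 RPKM against 955 to 1452 RPKM. Endothelial markers had a median of -0.45 with 8 of 9 negative. It was -0.45 in the first cycle (9 of 9) and -0.23 in the second (6 of 9), and -0.165 in the cosine fit to 12 libraries. The part of these cell types in the list values was not tested.

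The proliferation lists differed between cycles. All 20 genes of G2 and M phase were negative, with a median of -0.38, but the median was -0.89 in the first cycle and 0.03 in the second. Their summed level was highest at 12 and 16 h, at 58.5 and 56.2 RPKM, and between 23.8 and 45.5 RPKM in the other 6 libraries. Without the libraries at 12 and 16 h the median was -0.06 with 12 of 20 negative. The S phase genes had a median of -0.19, with -0.38 in the first cycle and -0.03 in the second. Summed markers of residual pluripotent cells were also highest at 12 and 16 h, at 5.50 and 4.58 RPKM against at most 1.77 RPKM in the others, and their part in the result was not tested.

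In the stress, growth and signalling lists the median was -0.11 for immediate early genes (14 of 17 negative). It was -0.10 for heat shock and temperature-responsive genes (13 of 14) and -0.08 for endoplasmic reticulum stress and ATF4 targets (14 of 16). Large-subunit ribosomal protein genes had -0.06 (20 of 20, though 6 of 20 in the first cycle). Hypoxia and glycolysis genes had -0.05 (14 of 18), with 0.03 (8 of 18) in the first cycle and -0.13 (17 of 18) in the second. After median centring the ribosomal median was -0.03 (17 of 20) and that of the hypoxia list -0.02 (11 of 18). The endoplasmic reticulum stress median was -0.01 (9 of 16) with a linear trend in time and turned to 0.01 (6 of 16) without the libraries at 48 and 52 h. Atf4 had 33.0 to 34.8 against 36.2 to 41.3 RPKM, without overlap. Glucocorticoid-induced genes had a median of 0.02 with 10 of 18 positive, a sign that did not hold, since the median was -0.05 (13 of 18 negative) with a linear trend, -0.07 (14 of 18) in the cosine fit, -0.08 (15 of 18) without the libraries at 48 and 52 h and -0.04 (12 of 18) without the library at 52 h alone. Klf9, a clock-linked glucocorticoid target, was at 17.8 to 25.5 against 17.8 to 20.3 RPKM, and Lcn2 at 60.95 to 115 against 45.0 to 86.2 RPKM, both with overlap. The clock kinases, ligases and accessory genes had a median of -0.04 and clock-controlled output genes one of -0.09 (0.02 between hours 4 and 16 alone), where Wee1, a cell cycle kinase gene with E-boxes, was at 2.67 to 4.26 against 4.05 to 4.55 RPKM, with overlap.

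**Figure D5:**
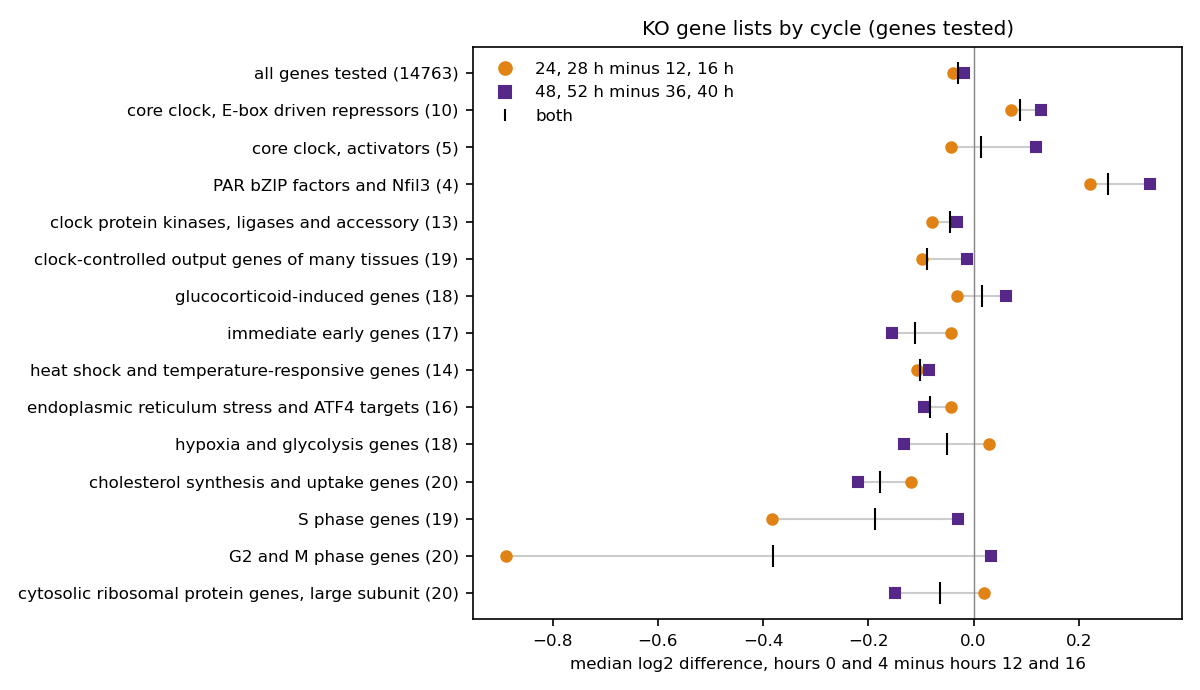
Median KO log2 difference (horizontal axis) of all genes and of each gene list in the first cycle (orange circles), the second (purple squares) and over both (black ticks), with the number of genes tested in brackets. Cholesterol genes are negative in both cycles at -0.12 and -0.22, while G2 and M phase genes are at -0.89 and 0.03.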

How the data were processed

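RNA-seq was analysed for 24 libraries, 12 per genotype, 1 per time point from 12 to 56 h in steps of 4 h. Per the labels and the study's methods, the authors selected polyA RNA, sequenced 101-bp paired reads, used Trimmomatic 0.36, STAR 2.5.4b on GRCm38 with mapping quality under 10 removed, and HOMER counts over UCSC canonical exons, and deposited RPKM for 33079 genes. A count test was not used, since the deposited values are normalized. RPKM times length and total gave multiples of 0.5 fragment for 100% of values (tolerance 0.01), and Nr1d1 had a mean of 486.5 and 142.7 fragments on the sides.

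Genes above a mean of 0.5 RPM were tested in R 4.3.3 by limma 3.58.1 (log2 of RPKM plus 0.1, eBayes with an intensity trend, two-sided, Benjamini-Hochberg, threshold 0.05), in KO, in WT and as an interaction, after tests on simulated data. Python 3.11.15 with pandas 2.3.3 and matplotlib 3.10.9 served for sequences (RefSeq, GRCm38.p6) and figures. Genes named are the tested members of the 3 clock lists, the 10 genes per direction called or otherwise with the smallest p, without overlap, of at least 1 RPKM on a side and of the same sign in both cycles, up to 3 members of each other list, and the 5 genes with the smallest interaction p. AK053029's neighbour Thra, the summed marker lists and Srebf2 were named beyond that rule, after their values were seen. Genes withheld are not reported here. Symbols with several rows used the row with the highest mean in lists. Members and lists were chosen with earlier results of these data known. Libraries were not paired: deviations 12 h apart had correlations of 0.0413, -0.237, -0.183 and 0.096. Alternatives covered the pseudocount, filters, scaling, time terms, each hour alone and each library left out.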

Additional observations from a re-analysis of the deposited data

Results flagged for a closer look

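Among 140 groups of 4 libraries (70 named genes in the sides of KO), 1 held a library far from the others, where chance gives about 1 in 20. Abi3bp at 48 h was at 1.824 RPKM, below the other libraries of hours 0 and 4 at 1.983 to 2.008 RPKM, and above all those of hours 12 and 16.

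For 3 of the named genes every pair of libraries 12 h apart moved one way in KO and the other way in WT. The KO minus WT difference of the contrast was -0.4877 for Gtf2f2 (adjusted p = 0.624 in limma over all genes), -0.4166 for Ddx10, a DEAD-box helicase gene (adjusted p = 1), and 0.1861 for Gpi1, glucose-6-phosphate isomerase (adjusted p = 1). Ddx10 was at 3.96, 3.47, 3.81 and 3.32 RPKM at hours 0 and 4 in KO and at 4.33, 4.44, 4.09 and 4.48 RPKM at hours 12 and 16. Gpi1 was at 80.9 to 83.6 and 75.8 to 80.1 RPKM. None passed the interaction test, and these genes were named for their small p there, so the opposite signs were in part selected. Idi2, a further gene of that choice, had a difference of -0.76 in KO and 0.61 in WT and a mean of 30.6 fragments per KO library at hours 0 and 4. Its interaction had an adjusted p of 1 in limma over all genes.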

How the results depend on the processing

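The 0 calls in KO became 1 with a pseudocount of 1 (AK053029), 1 without a filter (Mir7054), 3 in the cosine fit and 2 without the libraries at 12 and 16 h (AK053029 and Nr1d1), and stayed 0 when each library was left out (range 0 to 0) and under the remaining alternatives. The smallest adjusted p lay between 0.0562 and 0.625 when single libraries were left out. The 1 WT call became 0 without a filter, at a mean of at least 10 RPKM, without an intensity trend and with a linear trend. It also became 0 with the 12 h pair as replicate block and between hours 0 and 12 alone. The same held without the libraries at 12 and 16 h or at 48 and 52 h. When single libraries were left out, 0 to 2 WT genes were called. Between hours 4 and 16 alone 13 WT genes were called, all lower at hour 4, and Nr1d2 was not among them. The interaction had 0 calls under every alternative. With the 12 h pair as replicate block KO had 0 calls and 306 higher and 652 lower genes at an unadjusted p under 0.05. Lower genes made up 72.4% of the KO genes at that p, 46.2% after median centring and 46.3% after quantile normalization, and 75.3%, 47.6% and 42.3% in WT. Leaving out single KO libraries gave 125 to 444 higher and 356 to 880 lower genes, with the extremes of the lower genes without the library at 52 h and at 48 h. Nr1d1 stayed between 0.99 and 1.51, Nr1d2 between 0.79 and 1.44, AK053029 between 1.13 and 1.88 and Dbp between 0.42 and 1.77. No KO gene was called as reported, so a reversal could be counted only for values called under an alternative. Among the named KO genes none of those reversed. Values that were not called did change sign, with Per2 between -1.08 and 0.62. Arntl2 kept its sign in 13 of 22 alternatives, whereas Clock and Npas2 kept theirs in 23 of 23. The causes were not tested. Depth limits genes of few fragments, and with 1 library per time point time and noise cannot be told apart.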
